A study of Homo sapiens with 6 samples.

Results

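Genes of 2 small annotation classes were followed in HK-2 cells, an immortalised line of human renal proximal tubule epithelium: sense-intronic genes and genes marked TEC, the GENCODE label for loci that still await an experimental test. A gene was a member when the authors' count table gave it either type, when its counts over the 6 libraries summed to 60 or more, and when it did not lie on chromosome X or Y. The rule took 136 of 28565 genes in the table, namely 62 of 655 sense-intronic rows and 74 of 549 TEC rows. A further 3 sense-intronic rows reached the sum but lay on a sex chromosome. The rule used summed counts over both groups, and these sums are given below as a description only.

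The 6 libraries fell into 2 groups, both of HK-2 cells that had received a plasmid overexpressing the long noncoding RNA named LncR2 in the titles. One group had been exposed to cisplatin, a drug that crosslinks DNA, for 24 h (3 libraries), and the other for 0 h (3 libraries). RNA was depleted of ribosomal RNA rather than selected by its poly(A) tail, and libraries were directional. Both groups carry the plasmid, and cells without it or without cisplatin over the same hours were not analysed here, so the effect of the drug cannot be told apart from that of time in culture. The labels leave it unclear whether libraries of a group are separate cultures, and the design text speaks of 2 biological replicates, so p-values measure only the spread between these libraries.

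Sense-intronic RNAs are long noncoding RNAs annotated within an intron of another gene, on the same strand and without sharing its exons. TEC loci are regions with signs of a polyadenylated transcript, such as single-exon cDNAs or expressed sequence tags, that have not been tested further. RNAs of both kinds are often nuclear, and the nuclear exosome with its adaptor complexes, lariat debranching and early transcription termination are known to limit RNA of this sort. A read in an intron can also come from unspliced RNA of the host gene, and counts cannot tell these sources apart.

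GENCODE 29 (GRCh38) held 132 of the 136 members by identifier, and 57 of 58 matched sense-intronic members and 73 of 74 TEC members had the same type there. Of the 58 sense-intronic members, 52 lay in an intron of a same-strand gene and 4 overlapped an exon of one, and the host was coding in 53. Of the 74 TEC members, 41 lay in an intron, 6 overlapped an exon, 8 overlapped a gene on the other strand only, and 8 lay without overlap within 5 kb downstream of a coding gene. The longest transcript had 1 exon in 34 of 58 sense-intronic and in all 74 TEC members. Its median length was 1817.5 bases in sense-intronic and 2110 bases in TEC members, and the median GC content was 42.4% and 45.6%. Both classes thus shared intronic positions and short, often unspliced models. Only TEC members overlapped a gene on the other strand alone, or lay without overlap within 5 kb downstream of a coding gene. A gene on the other strand was present for 8 of 58 sense-intronic and 17 of 74 TEC members. Since sense-intronic genes are annotated within a same-strand gene, this contrast was largely set by definition.

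The 3′ ends of 5 of the 6 called members are shown because the poly(A) signal, the hexamer that directs cleavage and tailing of an RNA, is a feature the rule did not use. The last 80 bases of the longest GENCODE 29 transcript are given 5′ to 3′ on the transcript's strand, with AATAAA or ATTAAA in capitals where it lies within the last 50 bases. They come from GRCh38, from chr13:110894639-110894718 on the minus strand for ANKRD10-IT1, chr17:58101400-58101479 on the plus strand for RP11-159D12.8, chr7:127359785-127359864 on the minus strand for AC000123.2, chr11:75260129-75260208 on the minus strand for CTD-2562J17.6 and chr7:84939335-84939414 on the minus strand for AC074183.3.
ANKRD10-IT1: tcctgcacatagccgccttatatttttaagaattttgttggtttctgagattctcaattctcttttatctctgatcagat
RP11-159D12.8: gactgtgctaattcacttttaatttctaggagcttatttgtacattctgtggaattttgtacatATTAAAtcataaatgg
AC000123.2: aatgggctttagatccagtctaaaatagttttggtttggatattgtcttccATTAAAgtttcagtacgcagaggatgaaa
CTD-2562J17.6: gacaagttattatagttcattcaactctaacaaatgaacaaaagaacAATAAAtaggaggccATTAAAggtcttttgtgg
AC074183.3: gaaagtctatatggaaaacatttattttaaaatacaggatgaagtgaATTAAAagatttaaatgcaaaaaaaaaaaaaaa

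One or both hexamers stood in the last 50 bases in 31 of 58 sense-intronic members (53.4%) and 26 of 74 TEC members (35.1%), against 9736 of 13231 tested genes (73.6%). Tested lincRNA genes gave 57.0%, antisense genes 56.5% and protein-coding genes 76.6%. The sense-intronic share was thus near those of lincRNA and antisense genes, and the TEC share lay under them, without a test. AATAAA alone or with ATTAAA was found in 39.7% of sense-intronic and 28.4% of TEC members, and a transcript with both counted once. On the other strand of the same windows a hexamer was found in 5.2% of sense-intronic members, 14.9% of TEC members and 13.6% of all tested genes. Of the 5 called TEC members 4 held a hexamer, while ANKRD10-IT1, the called sense-intronic member, held none. The median log2 fold change, 24 h over 0 h, was 0.04 in sense-intronic members with a hexamer and -0.23 in those without, and it was -0.15 in TEC members with a hexamer and -0.24 in those without. Without 0 h replicate 3, a 0 h library that lay near the 24 h libraries (below), these medians were -0.12, -0.31, -0.38 and -0.43 in the same order, so that the first changed sign.

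The total count per library ran from 6022268 to 7248754 at 24 h and from 5028881 to 5844246 at 0 h. Of the renal epithelium markers, 7 of 12 had at least 10 counts in every library, among them PAX8, KRT8 and KRT18. AQP1, CUBN, SLC34A1 and CDH1 were under 10 counts, LRP2 was not among the rows, and the markers summed to 1120 to 1240 CPM (counts scaled to TMM-adjusted library totals) at 24 h and 1150 to 1210 CPM at 0 h. Markers of blood, endothelial, fibroblast and podocyte cells summed to 7.40 to 11.0 CPM at 24 h and 8.83 to 12.0 CPM at 0 h. Libraries of 0 h did not lie together: 0 h replicate 3 had a first principal component of 1.82, against -23.0 and -23.7 in the other 0 h libraries and 6.21 to 21.9 at 24 h, so calls and class values are also given without it where they moved. It was singled out because it lay near the 24 h libraries, so fits without it favour larger differences between the groups. By edgeR 10.9% of all genes were called without it, against 2.94% with it.

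Members were scarce. The median sum was 104 counts over 6 libraries in sense-intronic and 115 in TEC members, and 53 of 62 and 55 of 74 stayed under 200. Levels per length were low too: the median FPKM (fragments scaled by gene length and library depth) of sense-intronic members was 1.12 at 24 h and 1.00 at 0 h, and that of TEC members 0.930 at 24 h and 0.893 at 0 h. SNHG3 stood far above the others, at 94.9 ± 29.6 FPKM at 24 h and 76.0 ± 14.7 FPKM at 0 h (SD, n = 3 each), when the next sense-intronic member averaged 16.1 FPKM at 24 h and 16.0 FPKM at 0 h. At the threshold, E2F3-IT1 and AGAP1-IT1 had sums of 60 and the TEC genes ENSG00000280099.1 and RP11-85I17.2 sums of 60 and 61, with log2 fold changes of -0.26, 0.33, -0.45 and -0.22, and RP11-1086F11.1, RP11-373D23.2, RP11-267M23.1 and RP11-294J22.7 stayed out with sums of 59, 59, 58 and 57. Precision was lower than for most genes: the median standard error of the log2 fold change was 0.35 among members and 0.14 among all tested genes.

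After 24 h of cisplatin, 6 members were called lower and 0 higher than at 0 h. In the quasi-likelihood test of edgeR, with p-values adjusted by Benjamini-Hochberg over 13303 genes and called under 0.05, 1 of 62 sense-intronic members and 5 of 74 TEC members fell, and 0 rose. Of all genes tested, 2.94% were called in either direction, 2.07% fell and 0.872% rose. Of the 1153 other genes whose sums lay between the members' quartiles of 83 and 159.75 counts, 1.73% fell and 0.0867% rose. Of 339 lincRNA genes under the same rule 4.42% fell. The sense-intronic share of 1.61% was thus near the background, and the TEC share of 6.76% stood above that of all genes, as did the lincRNA share, without a test of these differences. At an unadjusted p under 0.05 by the same edgeR test, 2 sense-intronic and 2 TEC members were higher, and 5 sense-intronic and 12 TEC members lower, against 8.25% of all genes higher and 10.0% lower. The other genes between those quartiles gave 3.38% higher and 10.1% lower, and lincRNA genes 15.0% lower. DESeq2 called 4 members lower and 0 higher, where 1.91% of all genes were lower. By limma on log2(FPKM + 1), 4 sense-intronic and 3 TEC members were called higher, or 5.15% of members where 13.0% of all genes were, and 1 sense-intronic and 4 TEC members lower, or 3.68% where 1.04% of all genes were.

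The number of called members changed when 1 library was left out, as did the share of all genes called. Without 24 h replicate 2 no member was called by edgeR at an adjusted p under 0.05, where 0.857% of all genes were called. Without 0 h replicate 3 the number was 18, the 6 members included, or 13.2% of members beside 10.9% of all genes. Leaving out 24 h replicate 1 gave 4 called members beside 1.88% of all genes, and leaving out 24 h replicate 3 gave 2 beside 1.41%. Leaving out 0 h replicate 1 gave 3 beside 2.30%, and leaving out 0 h replicate 2 gave 1 beside 0.962%.

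RP11-182N22.9, a TEC gene at chr9:35038625-35044326 on the minus strand, had the largest fall of the 6 called members. It lies opposite C9orf131 and 11738 bases downstream of VCP, which encodes a protein-unfolding ATPase. It had 25, 17 and 11 counts at 24 h, against 81, 85 and 30 counts at 0 h. Every 24 h library lay below every 0 h library, and 0 h replicate 3 was the lowest of its group. It averaged 2.70 ± 1.32 CPM at 24 h and 12.7 ± 6.42 CPM at 0 h (SD, n = 3 each), and the log2 fold change was -2.25 ± 0.42 (SE) with an edgeR adjusted p of 0.0053. The call was lost only without 24 h replicate 2 (adjusted p 0.0641), among 6 fits that each left out 1 library. The log2 fold change of VCP was 0.22 ± 0.11.

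RP11-159D12.8, a TEC gene at chr17:58095672-58101479 on the plus strand, begins 136 bases downstream of DYNLL2, which encodes a dynein light chain. It had 28, 16 and 26 counts at 24 h, against 48, 41 and 38 counts at 0 h, and the groups did not overlap in CPM. It averaged 3.50 ± 1.15 CPM at 24 h and 8.11 ± 1.43 CPM at 0 h (SD, n = 3 each), with a log2 fold change of -1.21 ± 0.27 and an edgeR adjusted p of 0.0221. DYNLL2 itself had a log2 fold change of 0.05 ± 0.10 with an edgeR adjusted p of 0.838. The call of RP11-159D12.8 held without 24 h replicate 1 or 0 h replicate 3 and was lost without any other 1 library, where its adjusted p reached 0.154.

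ANKRD10-IT1 was the sense-intronic member that fell. It lies at chr13:110894639-110899172 on the minus strand, within an intron of ANKRD10, which encodes an ankyrin repeat protein. It had 14, 12 and 9 counts at 24 h, against 21, 30 and 24 counts at 0 h. Each 24 h library was lower than each 0 h library, at 1.76 ± 0.538 CPM at 24 h and 4.77 ± 0.964 CPM at 0 h (SD, n = 3 each). The log2 fold change was -1.45 ± 0.33 with an edgeR adjusted p of 0.0239, and it was no longer called when 24 h replicate 2 or 3, or 0 h replicate 2, was left out, with adjusted p up to 0.151. The host ANKRD10 fell as well, to 43.2 ± 2.92 CPM at 24 h against 69.8 ± 6.30 CPM at 0 h (log2 fold change -0.69 ± 0.11, edgeR adjusted p 0.00295). As a percentage of the host's count, ANKRD10-IT1 stood at 4.96, 4.18 and 2.98 at 24 h and at 5.45, 8.62 and 6.58 at 0 h, again without overlap.

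AC000123.2, a TEC gene at chr7:127359785-127364759 on the minus strand, lies in an intron of ZNF800, which encodes a zinc finger protein. It had 56, 47 and 71 counts at 24 h, against 67, 81 and 87 counts at 0 h, and averaged 8.59 ± 1.57 CPM at 24 h and 14.9 ± 1.33 CPM at 0 h (SD, n = 3 each). Its log2 fold change was -0.79 ± 0.19 with an edgeR adjusted p of 0.0289, while the host ZNF800 had -0.07 ± 0.13 with an adjusted p of 0.832. Relative to the host's count it stood at 28.7%, 23.5% and 35.1% at 24 h and at 43.8%, 54.4% and 46.5% at 0 h, with no overlap. It was no longer called when 24 h replicate 1 or 2, or 0 h replicate 2, was left out (adjusted p up to 0.19) and by limma on FPKM (adjusted p 0.068).

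CTD-2562J17.6, at chr11:75260129-75262466 on the minus strand, lies opposite AP001972.1 and 1716 bases downstream of ARRB1, which encodes a beta-arrestin. It had 71, 61 and 79 counts at 24 h, against 91, 74 and 102 counts at 0 h, or 10.5 ± 1.48 CPM at 24 h and 16.9 ± 2.06 CPM at 0 h (SD, n = 3 each). The groups did not overlap in CPM, and the log2 fold change was -0.70 ± 0.17 with an edgeR adjusted p of 0.0414. ARRB1 had a log2 fold change of 0.21 ± 0.13. AC074183.3, at chr7:84939335-84940256 on the minus strand, overlaps the same-strand lincRNA AC074183.1, which was not used as a host here. It had 74, 114 and 97 counts at 24 h, against 104, 107 and 130 counts at 0 h, or 14.0 ± 2.23 CPM at 24 h and 21.6 ± 1.22 CPM at 0 h, without overlap in CPM (log2 fold change -0.62 ± 0.16, edgeR adjusted p 0.0436). Both calls held without 0 h replicate 3 and were lost without any other 1 library, with adjusted p up to 0.235 for CTD-2562J17.6 and 0.142 for AC074183.3. Both were also lost by DESeq2, by limma on FPKM and with the totals implied by the authors' FPKM.

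**Figure D1:**
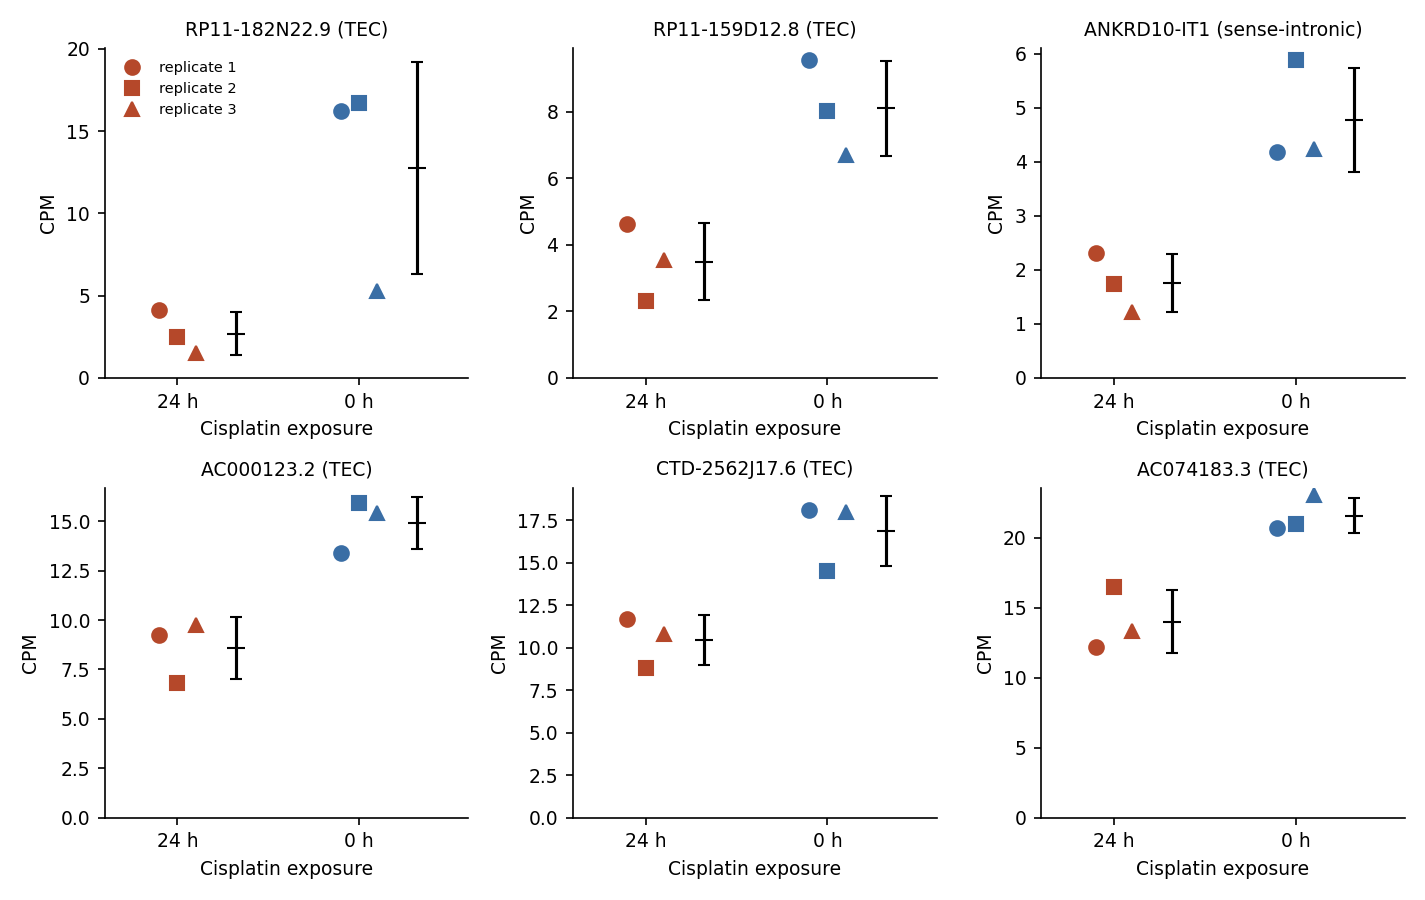
CPM of the 6 called members in each library, 24 h left of 0 h, with the mean and SD of 3 libraries as a black bar beside the points and replicates by shape. In each panel all 24 h libraries lie below all 0 h libraries, and 0 h replicate 3 of RP11-182N22.9 lies far below the other 0 h libraries.

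As classes, the members differed from the gene-wide median by small amounts. The median log2 fold change was -0.07 in sense-intronic members (quartiles -0.29 and 0.20, range -1.46 to 1.08) and -0.22 in TEC members (quartiles -0.49 and 0.02, range -2.25 to 1.18), beside 0.00 over all genes tested. Values below 0 were seen in 35 of 62 sense-intronic members (56.5%) and 54 of 74 TEC members (73.0%), beside 50.3% of all genes. Other genes with sums in the members' interquartile range had a median of -0.08 and 57.1% below 0, lincRNA genes of the same sum rule -0.11 and 64.0%, and antisense genes -0.14 and 59.0%. The sense-intronic median was thus near that of other scarce genes, and the TEC median lay lower than each of these medians. With the totals implied by the authors' FPKM the median of all genes moved by 0.24, to 0.24, and the medians became 0.17 in sense-intronic and 0.01 in TEC members, which is 0.07 and 0.23 under all genes. On this scale the TEC median was no longer below 0, and by limma on FPKM it was 0.00. It was under the sense-intronic median in the main fit and in each of 15 other settings. When 0 h replicate 3 was left out, the medians were -0.19 in sense-intronic and -0.41 in TEC members. Leaving out 0 h replicate 1 gave 0.08 in sense-intronic and -0.13 in TEC members, and leaving out 24 h replicate 1 gave -0.15 and -0.39.

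**Figure D2:**
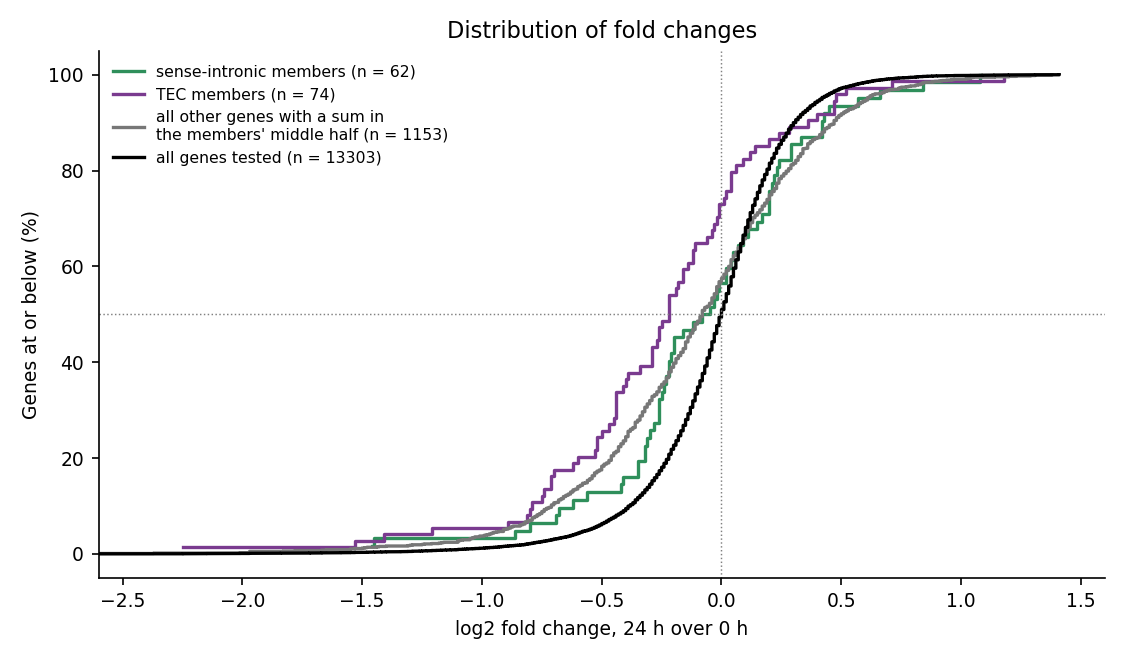
Cumulative share of genes, in percent, against the log2 fold change of 24 h over 0 h, for 62 sense-intronic members, 74 TEC members, 1153 other genes with sums between the members' quartiles, and 13303 tested genes. The horizontal axis is drawn from -2.6 and leaves out lower values of other genes. The TEC curve crosses 50% at -0.22 and the sense-intronic curve at -0.07.

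Groups that did not overlap in CPM were seen in 3 sense-intronic and 2 TEC members for higher and 6 sense-intronic and 13 TEC members for lower values, where all tested genes gave 10.9% higher and 11.7% lower, and other genes between the members' quartiles 5.90% higher and 11.5% lower. Among the uncalled members, CTA-390C10.10, in an intron of the pseudogene CRYBB2P1, had the lowest sense-intronic fold change. It had 7, 9 and 11 counts at 24 h, against 27, 21 and 10 counts at 0 h, with a log2 fold change of -1.46 ± 0.43 and an edgeR adjusted p of 0.0691. Without 0 h replicate 3, where 10.9% of all genes were called, the edgeR adjusted p was 0.000362 and the log2 fold change -1.82. RP11-705C15.3, which overlaps no gene, had 58, 58 and 55 counts at 24 h, against 58, 71 and 77 counts at 0 h (-0.62 ± 0.18, edgeR adjusted p 0.0782).

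On the higher side no member passed the edgeR test at an adjusted p under 0.05. The sense-intronic gene ENSG00000277534.1, in an intron of KCTD1, had 30, 18 and 42 counts at 24 h, against 14, 9 and 10 counts at 0 h, a log2 fold change of 1.08 ± 0.37 with an adjusted p of 0.121, and its groups overlapped in CPM. KCTD1 had a log2 fold change of 0.12 ± 0.15. The TEC gene ENSG00000279673.1, which overlaps no gene, had 19, 27 and 21 counts at 24 h, against 5, 3 and 15 counts at 0 h, without overlap (1.18 ± 0.44, edgeR adjusted p 0.148). The 0 h library with 15 counts was replicate 3. Without it, where 10.9% of all genes were called, the log2 fold change was 2.04 with an edgeR adjusted p of 0.00259. ENO1-IT1, named for an intron of the enolase gene, had 24, 21 and 15 counts at 24 h, against 10, 10 and 6 counts at 0 h, without overlap (0.84 ± 0.39, edgeR adjusted p 0.251). RP4-756H11.3 had 13, 15 and 15 counts at 24 h, against 7, 9 and 5 counts at 0 h (0.66 ± 0.39, edgeR adjusted p 0.384). RP11-546D6.3, which shares exon sequence with MPHOSPH9 and is therefore uncertain, had 28, 26 and 46 counts at 24 h, against 16, 19 and 21 counts at 0 h (0.47 ± 0.28, edgeR adjusted p 0.397). With the totals implied by the authors' FPKM, under which the gene-wide median log2 fold change was 0.24 and 17.8% of all genes were called higher, the edgeR adjusted p was 0.0107 for ENSG00000277534.1, 0.0151 for ENSG00000279673.1 and 0.0438 for ENO1-IT1. By limma on log2(FPKM + 1), where that median was 0.18, all 5 of these genes passed, with adjusted p-values from 0.0167 for ENSG00000279673.1 to 0.0478 for RP11-546D6.3. ENSG00000277534.1 and ENSG00000279673.1 also passed without a filter on low counts, with edgeR adjusted p-values of 0.0268 and 0.0441 in that order.

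SNHG3, a small nucleolar RNA host gene, made up 48.9%, 66.0% and 65.9% of the sense-intronic counts at 24 h and 60.2%, 56.9% and 56.7% at 0 h. GENCODE 29 gives it as a processed transcript at chr1:28505980-28510892 on the plus strand, overlapping an exon of RCC1, so reads shared with RCC1 are uncertain. It had 1566, 2969 and 3059 counts at 24 h, against 2073, 1861 and 1579 counts at 0 h. It averaged 369 ± 96.1 CPM at 24 h and 352 ± 68.1 CPM at 0 h (SD, n = 3 each), and 24 h replicate 1 held the lowest level of all. The log2 fold change was 0.07 ± 0.17 with an edgeR adjusted p of 0.878. SNORA73B, a small nucleolar RNA encoded within SNHG3, had 707, 1435 and 1591 counts at 24 h, against 1202, 1120 and 957 counts at 0 h (-0.21 ± 0.18, edgeR adjusted p 0.597). The ratio of SNHG3 to SNORA73B counts was 2.21, 2.07 and 1.92 at 24 h and 1.72, 1.66 and 1.65 at 0 h, so the groups did not overlap in this ratio, which was chosen after its values were seen and has no test.

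None of the other abundant members described here was called. CTD-3099C6.9, in an intron of ZNF83, had a log2 fold change of -0.20 ± 0.15, RP11-104N10.2, which GENCODE 29 did not hold, 0.20 ± 0.21, and the sense-intronic gene ENSG00000261061.1, in an intron of the centromere gene CENPN, -0.22 ± 0.15. ENSG00000261061.1 stood at 18.8%, 18.4% and 18.0% of the CENPN count at 24 h and at 20.9%, 27.4% and 20.4% at 0 h, without overlap, while CENPN had a log2 fold change of 0.08 ± 0.10. Among TEC members, RP3-331H24.6, in an intron of the lincRNA LINC00472, had 284, 227 and 211 counts at 24 h, against 179, 201 and 179 counts at 0 h. Scaled to depth these were 36.2 ± 9.43 CPM at 24 h and 35.6 ± 3.90 CPM at 0 h (SD, n = 3 each), which gave 0.02 ± 0.16 on the log2 scale of 24 h over 0 h. RP3-331H24.7, in the same host, had 98, 88 and 127 counts at 24 h, against 53, 58 and 74 counts at 0 h (0.40 ± 0.18, edgeR adjusted p 0.238), and LINC00472 itself had 0.12 ± 0.10. RP3-331H24.7 was called higher with the totals implied by FPKM (edgeR adjusted p 0.0189) and by limma on log2(FPKM + 1) (adjusted p 0.0296). PWAR5, a transcript of the imprinted Prader-Willi region in an intron of SNURF, had -0.11 ± 0.16. SNORD64, SNORD108 and the 3′ end of the member RP11-701H24.5 lie within its span on the same strand, so reads shared with them are uncertain. RP11-382B18.1 and RP11-624A21.1, downstream of CHRFAM7A and CHRNA7, each had -0.29, with standard errors of 0.22 and 0.20. Their transcripts were 99.0% identical over 3930 bases, so reads may have been shared out between them or lost, and both values are uncertain. Without 0 h replicate 3, where 10.9% of all genes were called, RP11-382B18.1 had -0.52 with an edgeR adjusted p of 0.0315.

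A set of 13 members carries an -IT name, which marks an intronic transcript of the gene in the name: 12 were sense-intronic and 1 was TEC. ANKRD10-IT1 was the 1 called member, 8 of 13 had a log2 fold change below 0, and the median was -0.26 with a range from -1.45 to 0.84. Values below 0 were also seen in 56.5% of sense-intronic members and 57.1% of other genes with sums between the members' quartiles. Of all genes tested 2.07% were called lower. The -IT set was not tested against these shares. NPTN-IT1 came next in p among those that were lower, with 23, 21 and 19 counts at 24 h, against 24, 32 and 23 counts at 0 h (-0.68 ± 0.28, edgeR adjusted p 0.209). HEIH, a long noncoding RNA described in liver cancer, is TEC in the table and had 17, 43 and 33 counts at 24 h, against 23, 38 and 37 counts at 0 h (-0.44 ± 0.29, edgeR adjusted p 0.453). DGCR11, from the DiGeorge syndrome region, had 24, 31 and 22 counts at 24 h, against 12, 16 and 16 counts at 0 h (0.45 ± 0.30, edgeR adjusted p 0.461). FOXP1-IT1 had 0.23 ± 0.39 and BACH1-IT1 -0.26 ± 0.38. NPTN-IT1, HEIH, DGCR11, FOXP1-IT1 and BACH1-IT1 were chosen after their values were seen.

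Whether a class moved as a whole was asked of its summed level in each library. The TEC members summed to 447, 338 and 333 CPM at 24 h and to 504, 498 and 361 CPM at 0 h. They averaged 373 ± 64.6 CPM at 24 h and 454 ± 80.5 CPM at 0 h (SD, n = 3 each), a log2 ratio of -0.29 whose exact two-sided permutation p was 0.2. The groups overlapped, since 0 h replicate 3 lay below 24 h replicate 1. Without that library the TEC sums did not overlap and averaged 373 ± 64.6 CPM at 24 h (SD, n = 3) and 501 ± 4.44 CPM at 0 h (SD, n = 2), a log2 ratio of -0.43, with an exact permutation p of 0.2 where 0.1 is the smallest possible. Sense-intronic members without SNHG3 summed to 270, 221 and 217 CPM at 24 h and to 273, 277 and 213 CPM at 0 h (236 ± 29.5 CPM at 24 h, 254 ± 35.9 CPM at 0 h, exact permutation p 0.7). With SNHG3 they summed to 528, 651 and 636 CPM at 24 h and to 687, 642 and 492 CPM at 0 h, a log2 ratio of 0.00 (exact permutation p 1). Leaving out 0 h replicate 3, the log2 ratio was -0.22 without SNHG3 (exact permutation p 0.2) and -0.13 with it (exact permutation p 0.5). In bulk RNA, fewer cells with a transcript and less of it per cell cannot be told apart.

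The ratio of both classes within a library does not depend on scaling. Sense-intronic over TEC counts, without SNHG3, came to 0.604, 0.655 and 0.652 at 24 h and to 0.542, 0.556 and 0.589 at 0 h. All 24 h libraries lay above all 0 h libraries, with a mean of 0.637 ± 0.0286 at 24 h and 0.562 ± 0.0241 at 0 h (SD, n = 3 each). The exact two-sided permutation p was 0.1, the smallest that 3 libraries against 3 allow, so this design could not have passed 0.05. With SNHG3 the ratio was 1.18, 1.93 and 1.91 at 24 h and 1.36, 1.29 and 1.36 at 0 h, which overlapped (exact permutation p 0.4). The 24 h and 0 h libraries were thus apart in this ratio with SNHG3 left out and not with it, and the choice to leave it out was made with earlier results of these data known.

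**Figure D3:**
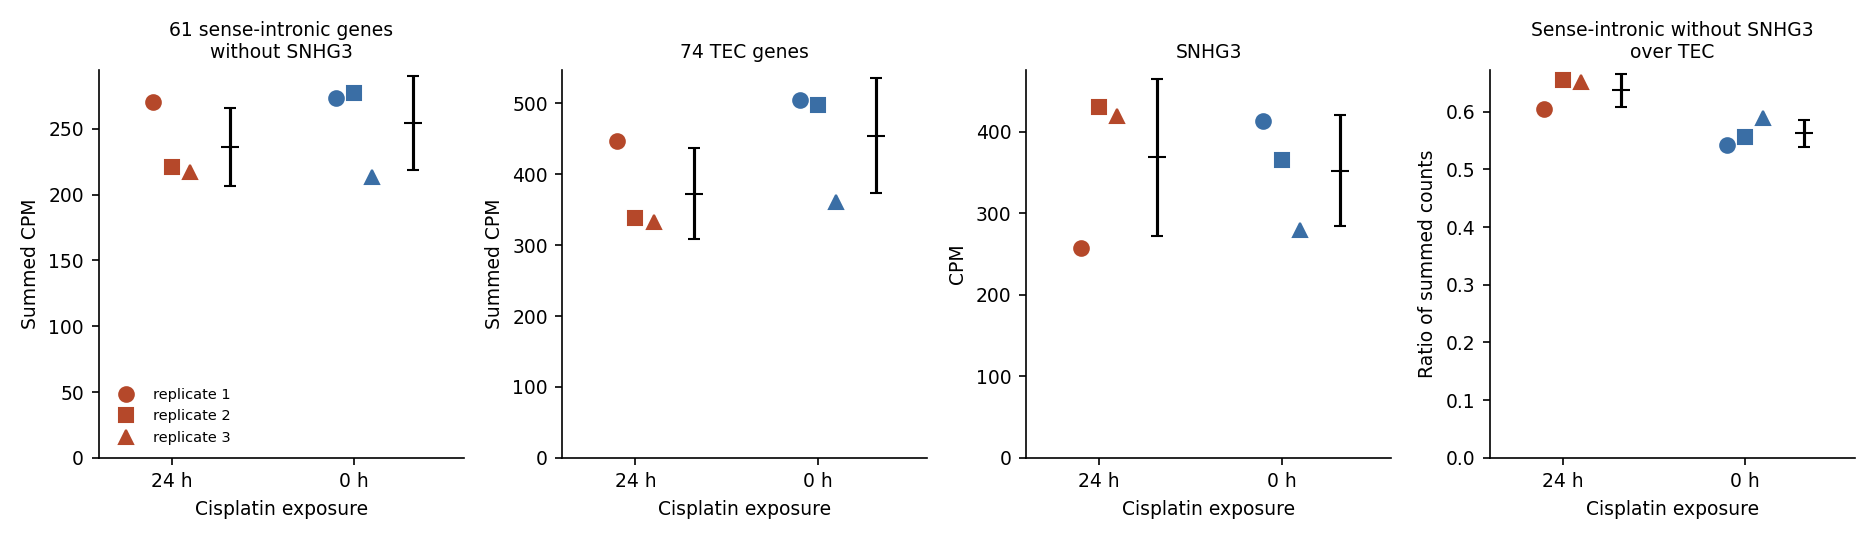
Summed CPM per library for 61 sense-intronic members without SNHG3 and for 74 TEC members, CPM of SNHG3, and the ratio of summed counts of the classes, each with 24 h left of 0 h, replicates by shape and the mean and SD of 3 libraries as a black bar. The ratio lies between 0.604 and 0.655 at 24 h and between 0.542 and 0.589 at 0 h, while the summed levels overlap.

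Fold changes were then set out by position in the annotation. The median log2 fold change was -0.22 in the 41 intronic TEC members, of which 30 were below 0 and 1 fell, and -0.10 in the 52 intronic sense-intronic members, of which 31 were below 0 and 1 fell. TEC members that overlap a gene on the other strand only had a median of -0.57 with 2 of 8 called. Those without any overlap and within 5 kb downstream of a coding gene had -0.33, with 7 of 8 below 0 and 1 called. Members with an overlap were kept out of this downstream class even when a coding gene ended close by. Thus the called CTD-2562J17.6, 1716 bases downstream of ARRB1, and the uncalled RP5-1039K5.12, 228 bases downstream of MICALL1, counted as opposite another gene. The 6 TEC members that overlap an exon of a same-strand host had a median of 0.17, with 2 of 6 below 0 and 0 called. AC074183.3, at -0.62 and called, overlaps a same-strand gene not used as a host and was kept apart from these 6. Over all genes tested, 2.07% fell and 50.3% were below 0. Of other genes with sums between the members' quartiles, 1.73% fell and 57.1% were below 0. The position classes hold few members, and their differences from each other and from these shares were not tested. With 0 h replicate 3 left out, the median was -0.39 in intronic TEC members and -0.19 in intronic sense-intronic members. Among TEC members it was -0.57 opposite another gene only and -0.47 downstream of a coding gene without overlap. Over an exon of a same-strand host it was -0.01, so that this median changed sign. Of the genes upstream of the 8 downstream members, IVNS1ABP, which encodes a kelch protein, was called higher (0.56 ± 0.10, edgeR adjusted p 0.00398), while RP4-635A23.6 downstream of it had -0.44 with an adjusted p of 0.493.

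**Figure D4:**
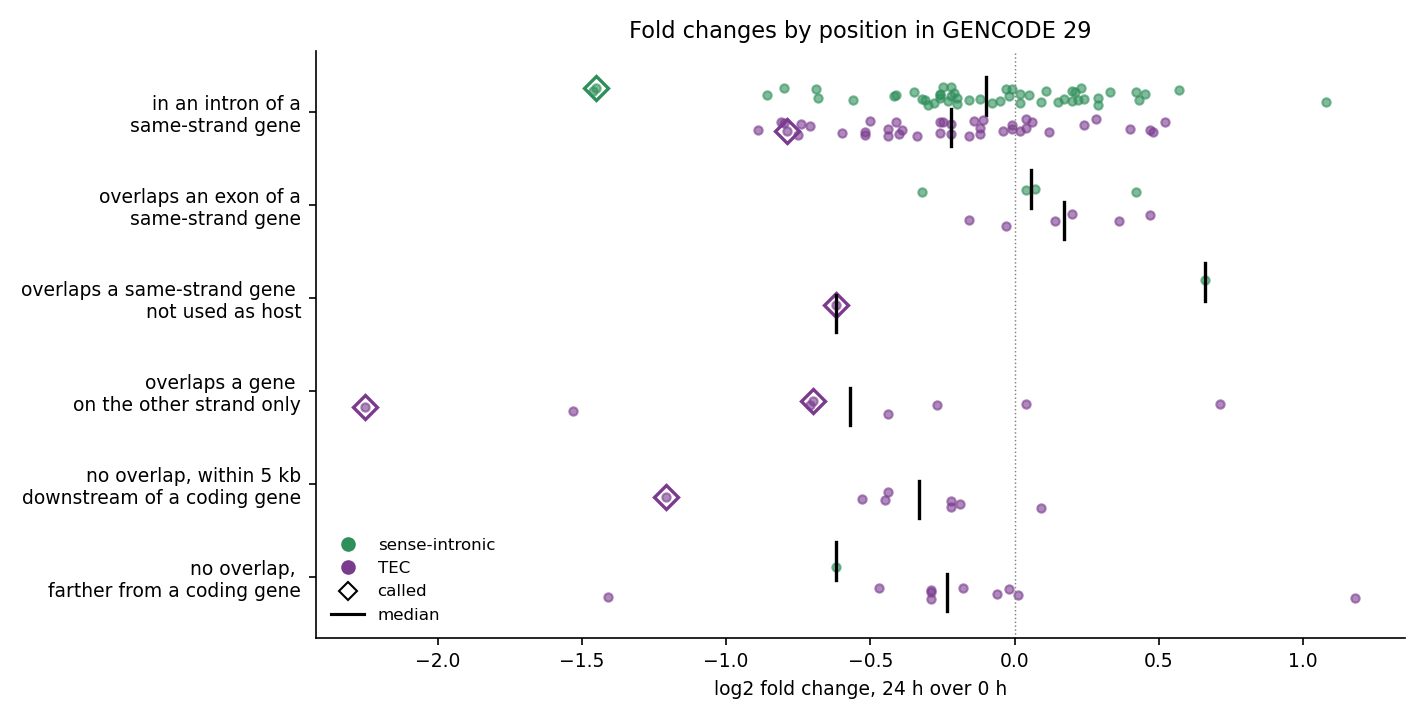
Log2 fold change, 24 h over 0 h, of the 132 members in GENCODE 29 by position, with sense-intronic members in green above TEC members in purple, called members in open diamonds and medians as black bars. Of the 6 called members, 2 lie opposite another gene only, 2 in an intron, 1 downstream of a coding gene without overlap and 1 over a same-strand lincRNA not used as a host.

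Each member was set beside its host, a same-strand gene outside both classes whose span it lies in or overlaps, a coding gene where there was one. A tested host was found for 55 sense-intronic members (50 hosts) and 43 TEC members (42 hosts). Of these hosts 0 rose and 3 fell among the sense-intronic hosts, and 0 rose and 1 fell among the TEC hosts, by edgeR at an adjusted p under 0.05, which 2.07% of all genes met as lower and 0.872% as higher. The median log2 fold change was -0.05 in sense-intronic members and -0.12 in their hosts, and -0.16 in TEC members and -0.09 in theirs. Member minus host had a median of 0.14 in sense-intronic pairs and -0.04 in TEC pairs. In 33 of 55 and 30 of 43 pairs this difference was smaller than the combined standard error of member and host. With a median standard error of 0.35 among members, these counts do not show that members followed their hosts. Across pairs, which share libraries and sometimes a host and are not independent, Pearson's r was 0.18 and Spearman's rho 0.11 for sense-intronic members, and both were 0.27 for TEC members. The hosts that fell were ANKRD10, AGAP1 (-0.50 ± 0.11, edgeR adjusted p 0.0232), PTPRM (-0.45 ± 0.12, adjusted p 0.0488) and PIP4K2A (-0.39 ± 0.09, adjusted p 0.0347). AGAP1-IT1 in AGAP1 had 0.33, RP11-678G15.1 in PTPRM 0.02 and RP11-142L16.2 in PIP4K2A -0.44, none of them called. As a percentage of the host's count, 3 sense-intronic members, AGAP1-IT1 among them, were higher and 4 lower at 24 h without overlap, and 48 of 55 overlapped. Of TEC members 2 were higher and 2 lower without overlap, and 39 of 43 overlapped. Groups of 3 and 3 libraries without overlap have an exact two-sided permutation p of 0.1. The share over all genes is not known for such ratios, so these counts are a description only.

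**Figure D5:**
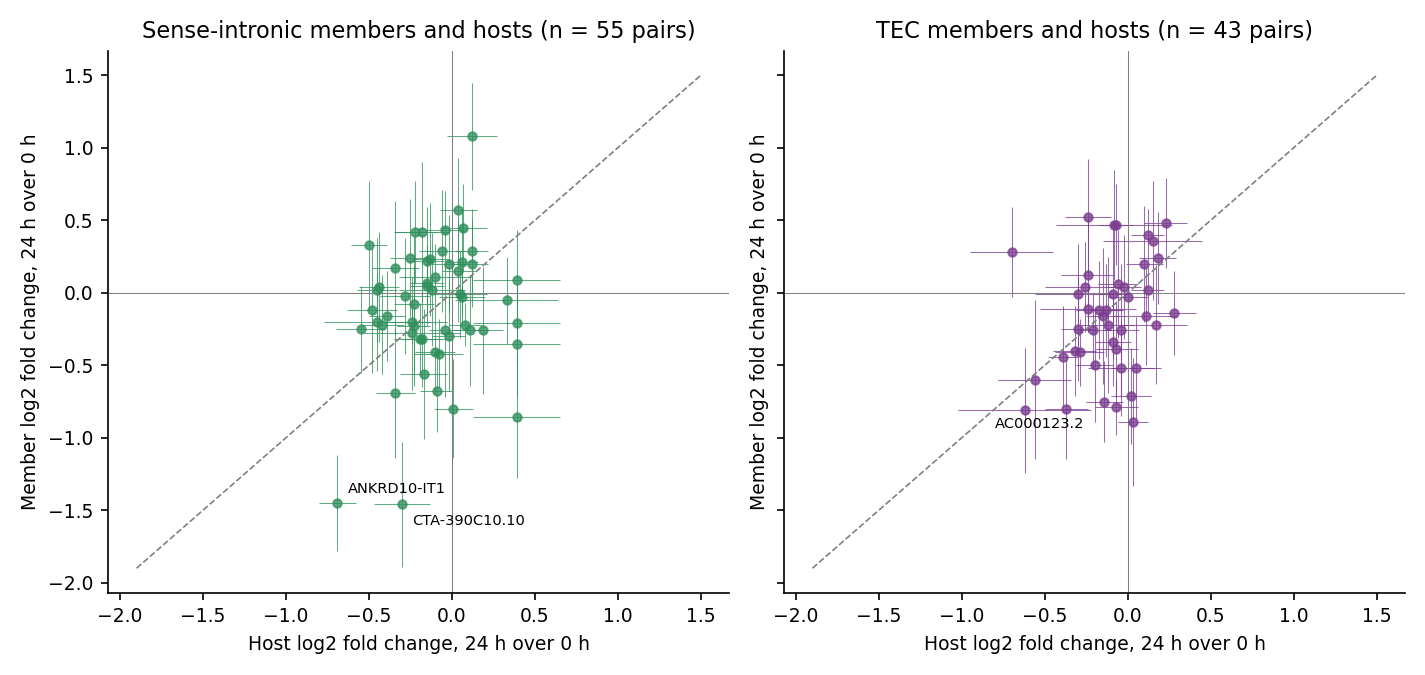
Log2 fold change, 24 h over 0 h, of each member against that of its host, with standard errors as bars, for 55 sense-intronic pairs on the left and 43 TEC pairs on the right; the dashed line marks equal change. ANKRD10-IT1 lies low in both directions, at -1.45 with its host at -0.69, while AC000123.2 lies at -0.79 with its host at -0.07.

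Summed over pairs and without SNHG3, sense-intronic counts were 4.28%, 3.71% and 3.78% of host counts at 24 h and 4.14%, 4.28% and 3.50% at 0 h. TEC counts were 8.60%, 6.72% and 6.35% at 24 h and 8.26%, 7.97% and 5.96% at 0 h, and both overlapped between groups. Several members shared a host: 6 hosts held 15 members. XKR6 held 4 sense-intronic members with log2 fold changes from -0.86 to 0.09, BIRC6, which encodes an inhibitor of apoptosis, held 3 with -0.16 to 0.22, and KLC1, which encodes a kinesin light chain, held 2 with 0.20 and 0.29. None of these was called, and members of 1 host did not all have the same sign in XKR6 and BIRC6.

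Factors that limit nuclear and intronic RNA were then read in the same fit, as a list of 44 tested genes: 13 of the nuclear exosome, 9 of its adaptors, 4 of lariat and 5′ decay, and 18 of Integrator and early termination. By edgeR at an adjusted p under 0.05, 1 of the 44 fell and 0 rose, beside 2.07% and 0.872% of all genes. At an unadjusted p under 0.05, 6 were lower and 3 higher, beside 10.0% and 8.25% of all genes, and DESeq2 called 0 higher. The gene that fell was PCF11, a factor of cleavage, polyadenylation and transcription termination, at 55.5 ± 1.33 CPM at 24 h and 90.7 ± 1.37 CPM at 0 h (SD, n = 3 each; log2 fold change -0.71 ± 0.10, edgeR adjusted p 0.000762). The list had a median of -0.01 and a range of -0.71 to 0.28, and no gene of the exosome, the adaptors or lariat decay was called. Without 0 h replicate 3 the list had 4 genes called lower, where 6.71% of all genes were, and without 0 h replicate 1 it had 2, where 1.56% were.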

How the data were processed

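RNA of 6 HK-2 libraries was sequenced after ribosomal RNA depletion. The submitters' processing notes name TopHat2, bcl2fastq and edgeR, and the build GRCh38. Which tool counted reads, and how it treated strand and multiple matches, is not stated in the sources at hand, so overlapping, antisense and near-identical genes are uncertain. The authors deposited whole-number read counts for 28565 genes, all rows naming a gene, and FPKM for 28561 genes.

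The members and lists were chosen with earlier results of these data known. Genes with a sum of 60 or more (13303) were fitted under R 4.3.3 with edgeR 4.0.16 and limma 3.58.1 by the quasi-likelihood test, with TMM scaling, no covariates and Benjamini-Hochberg adjustment over all of them, checked on simulated data. The common biological coefficient of variation was 0.103. Errors of fold changes are model standard errors, and levels are CPM of TMM-scaled totals as mean ± SD. Positions and sequences are from GENCODE 29 (97.1% of members matched), and transcripts were compared with BLAST 2.17.0. Summed levels were compared by exact permutation tests.

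Genes named were every called member, the 5 most abundant and the 3 with the smallest p in each direction per type, those at the threshold, hosts, and called genes of the decay list. Genes outside this rule, chosen after their values were seen, were NPTN-IT1, HEIH, DGCR11, FOXP1-IT1, BACH1-IT1, SNORA73B, members that share a host, and genes next to members. Alternatives were other scalings and filters, a sum of 120 or more, DESeq2 1.42.0, limma on log2(FPKM + 1), totals implied by FPKM, robust dispersion, a replicate block and leaving out 1 library.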

Additional observations from a re-analysis of the deposited data

How the results depend on the processing

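Among the named members, 330 values were recomputed: 271 kept their direction and side of the threshold, 28 lost a call, 20 gained one and 11 changed sign. Only the 6 called members could lose a call, so the 28 are not a share of all 330. In the 6 fits without 1 library, the call held in 5 for RP11-182N22.9 and in 3 each for ANKRD10-IT1 and AC000123.2. It held in 2 for RP11-159D12.8 and in 1 each for CTD-2562J17.6 and AC074183.3. With the totals implied by FPKM, 2369 of 13303 genes were called higher and 190 lower. Of sense-intronic members 2 were higher and 2 lower, and of TEC members 2 were higher and 4 lower. In that setting 8 decay genes were higher, the sense-intronic median was 0.17, and the log2 ratio of the sense-intronic summed level was 0.24. That ratio was 0.00 on library totals (opposite in sign before rounding), 0.02 in members with a sum of 120 or more, where 0 sense-intronic members were called lower because ANKRD10-IT1, with a sum of 110, is left out, and from -0.13 to 0.10 without 1 library. With limma on log2(FPKM + 1), 1723 genes were called higher and 138 lower, with 4 sense-intronic members, 3 TEC members and 5 decay genes higher, and 1 sense-intronic and 4 TEC members lower. Without a filter, 345 of 28565 genes were called higher and 395 lower. Among them, 1 sense-intronic and 1 TEC member were higher, and 2 sense-intronic members, 8 TEC members and 2 decay genes were lower. DESeq2 called 3 of 74 TEC members lower (4.05%), where 1.91% of all genes were lower.

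Whether equal replicate numbers pair the libraries stayed unclear. Same-numbered deviations correlated at 0.25, -0.01 and 0.44, and 4 of 6 libraries were closest to their own number. The main fit did not use the numbers. With the number as a replicate block, 736 genes were called higher and 964 lower, and 1 sense-intronic member higher, 3 lower, 10 TEC members lower and 4 decay genes lower.

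Without 1 library, genes called ran from 21 to 559 higher and from 93 to 893 lower, sense-intronic members lower from 0 to 3, TEC members higher from 0 to 1, TEC members lower from 0 to 14 and decay genes lower from 1 to 4. Changes of sign were seen in SNHG3, from -0.07 to 0.27 without 1 library, and RP3-331H24.6, from -0.21 to 0.15, and under FPKM totals and limma in CTD-3099C6.9 (0.04 and 0.04), ENSG00000261061.1 (0.01 and 0.02) and PWAR5 (0.13 and 0.10), where the median of all genes was 0.24 and 0.18. The causes were not tested. Depth limits these genes: 53 of 62 sense-intronic and 55 of 74 TEC members had under 200 counts in sum.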
